A study of Rattus norvegicus with 16 samples.

Results

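The respiratory chain genes described here are the nuclear genes for subunits of complexes I to V of the mitochondrial inner membrane. They were chosen by gene symbol alone, as Nduf, Sdh, Uqcr, Cox and Atp5 names in the probe annotation, and each gene was represented by its Affymetrix identification (Affy_ID) with the highest mean over 16 arrays. The rule took 77 of the 14217 genes with a symbol of their own, from 86 Affy_IDs, and 7 further Affy_IDs that list several symbols were left out. Of the 77 genes, 33 belonged to complex I, 4 to complex II, 7 to complex III, 17 to complex IV and 16 to complex V. Ndufa4 was counted with complex IV, to which it is now assigned, and Atp5if1 was counted with complex V although it encodes an inhibitor and not a subunit.

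Complex I takes electrons from NADH and complex II takes them from succinate. Both pass them through ubiquinone to complex III, and cytochrome c carries them on to complex IV, where oxygen is reduced. The protons pumped on the way drive ATP synthesis by complex V. Sensory neurons depend on this route for the ion gradients and the long axons they maintain. Several complex IV subunits have a common isoform and a second isoform that is used in particular tissues, such as heart and skeletal muscle.

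Messenger RNA was measured in L4/L5 dorsal root ganglia (DRG) of Sprague-Dawley rats 7 days after surgery. The design asks how the response to nerve injury depends on age. Adults were males operated on at 2 months. Young rats were operated on at 10 days and sampled at 17 days of age. In spared nerve injury (SNI) the tibial and common peroneal branches of the sciatic nerve were tied and cut and the sural branch was left, and a retrograde tracer was put into the cut ends. In sham animals the nerve was exposed but neither cut nor tied. Adult sham, adult contralateral, adult SNI and young sham had 3 arrays each, and young contralateral and young SNI had 2 each after the authors had removed 2 arrays as outliers. Contralateral ganglia came from the uninjured side of SNI rats. Each array held RNA pooled from 3 adult rats (6 DRG) or 4 young rats (8 DRG), so that the spread between arrays is a spread between pools. Values are log2 GC-RMA signals, on which a difference of 1 is a doubling, and the level of one gene cannot be set against that of another.

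The tissue was checked with its markers. Prph, the intermediate filament of peripheral neurons, lay between 13.72 and 14.63 in the 16 arrays, and Nefl, a neurofilament gene, between 14.84 and 15.46. One array stood apart. In young SNI replicate 2 the summed signal of 12 genes of central nervous tissue was 15.5, against 6.15 to 8.55 in the other arrays, and Scn10a, a sodium channel of nociceptors, was at 8.06 against 10.22 to 11.28. The differences after SNI in young rats rest on this array and 1 other, and are given with and without it. Xist, which is transcribed in females, did not exceed 2.57 in any adult array and was at 9.77 or above in 5 of the 7 young arrays, while young sham replicate 2 and young contralateral replicate 1 were at 2.36 and 2.35. Age and sex are thus partly confounded. Both young SNI arrays were high, at 11.84 and 12.05, so that young SNI and its controls also differ in Xist. The part of sex in the age differences and in the differences after SNI in young rats was not tested.

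Most respiratory chain genes gave a strong and steady signal in every array. The mean over 16 arrays was at least 11 in 61 of the 77 genes, and 70 were among the upper 20% of all Affy_IDs. In 73 genes the lowest and the highest array differed by less than 1.5. The median standard deviation (SD) within groups was 0.21 for these genes and 0.22 for all 31042 Affy_IDs. As signals of these Affy_IDs, which do not rank amounts of mRNA, the means in complex I ran from 9.76 for Ndufs4 to 13.32 for Ndufa1, both accessory subunits, and in complex II from 10.07 for Sdhc to 12.2 for Sdhb. Complex III ran from 12.02 for Uqcrq to 12.68 for the hinge protein gene Uqcrh. Complex V ran from 10.34 for Atp5me to 14.08 for Atp5mc3. Complex IV ran from 2.08 for Cox7b2 to 13.91 for Cox6c.

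In complex IV several second isoforms were near the floor of the scale. Cox4i1, Cox6a1, Cox6b1 and Cox8a, the common isoforms, had means of 13.7, 13.09, 12.51 and 13.28. Their counterparts Cox4i2 and Cox6b2 had means of 2.09 and 2.24, and Cox7b2 was never above 2.21, which is the low end of the GC-RMA scale. Cox7a1, the heart and muscle form of subunit 7a, lay between 3.21 and 4.75. Cox7a2l, a supercomplex factor related to subunit 7a, lay between 12.23 and 12.77 and is not an isoform pair of Cox7a1. Cox4i2 was between 1.9 and 2.16 in 14 arrays and reached 2.63 in young contralateral replicate 2 and 3.04 in young SNI replicate 2.

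The muscle isoforms Cox6a2 and Cox8b behaved unlike the other members. They ranged over 9.45 and 9.01 log2 units, while the next widest range was 1.78, in Cox5a. Cox6a2 was at 7.9, 1.46 and 8.55 in adult sham, at 3.89, 2.08 and 4.63 in adult contralateral and at 2.11, 2.22 and 3.58 in adult SNI. In young rats Cox6a2 was at 3.63, 6.82 and 2.3 in sham, at 10.91 and 8.08 in contralateral and at 8.39 and 4.2 in SNI. Adult sham alone spanned 1.46 to 8.55. Cox8b was at 8.13, 2.61 and 9.15 in adult sham, 5.73, 2.6 and 5.84 in adult contralateral and 3.11, 3.01 and 4.51 in adult SNI. In young rats Cox8b was at 5.4, 7.93 and 4.91 in sham, 11.61 and 7.83 in contralateral and 9.08 and 3.92 in SNI. The arrays that were high in one were high in the other. Their common counterparts did not share this pattern, since Cox6a1 stayed between 12.41 and 13.47 and Cox8a between 13.05 and 13.57.

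Cox6a2 and Cox8b moved with striated muscle markers. The summed signal of 16 measured muscle markers, among them the skeletal actin Acta1 and the creatine kinase Ckm, ranged from 11.81 to 16.39 in adult sham, from 12.57 to 14 in adult contralateral and from 12.52 to 13.52 in adult SNI. In young rats it ranged from 12.92 to 14.99 in sham, from 15.45 to 17.31 in contralateral and from 12.92 to 15.66 in SNI. Acta1 itself ranged from 7.82 to 14.88 and Ckm from 1.99 to 12.91 over the 16 arrays. Over the 16 arrays Cox6a2 correlated with this sum at Pearson r = 0.97 (permutation p = 1e-05, adjusted 2e-05, n = 16; Spearman rho = 0.96, permutation p = 1e-05). Cox8b correlated at r = 0.96 (permutation p = 1e-05, adjusted 2e-05, n = 16; rho = 0.96, permutation p = 1e-05). The p of 1e-05 is the smallest that 100000 permutations can give. The tests were 2-sided, for 4 genes by both coefficients, and p was adjusted over the 4 genes. The permutations treated the 16 arrays as independent, although contralateral ganglia came from SNI rats.

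Both measures of a pair come from the same array and thus the same dissection. Without the 2 arrays farthest from the median r was 0.95 for Cox6a2 and 0.94 for Cox8b. Within the 9 adult arrays r was 0.93 for each, and within the 7 young arrays 0.98 for each. Over the 11 sham and SNI arrays, which come from different rats, r was 0.94 for Cox6a2 and 0.95 for Cox8b (permutation p = 2e-05 for each, adjusted 4e-05). For the other low isoforms r over the 16 arrays was -0.05 for Cox7a1 (permutation p = 0.84) and 0.04 for Cox4i2 (permutation p = 0.89). Within ages r of Cox7a1 was 0.69 in the 9 adult and -0.39 in the 7 young arrays, and that of Cox4i2 was 0.09 and -0.25.

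Markers of fat cells were counted as well. The summed signal of 9 measured adipocyte markers ranged from 9.02 to 10.98 in adult sham, from 9.11 to 9.67 in adult contralateral and from 9.39 to 11.21 in adult SNI. In young rats it ranged from 9.85 to 10.8 in sham, from 10.32 to 12.04 in contralateral and from 9.48 to 11.5 in SNI. It was highest in young contralateral replicate 1 and lowest in adult sham replicate 2, which also had the highest and the lowest sum of muscle markers. The defining markers Adipoq and Plin1 were near the floor, at most 2.98 and 2.14, and 0 of 9 passed between ages. The part of fat or muscle tissue in these values was not tested. In pooled tissue a smaller number of cells of one type and less RNA per cell cannot be told apart.

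**Figure D1:**
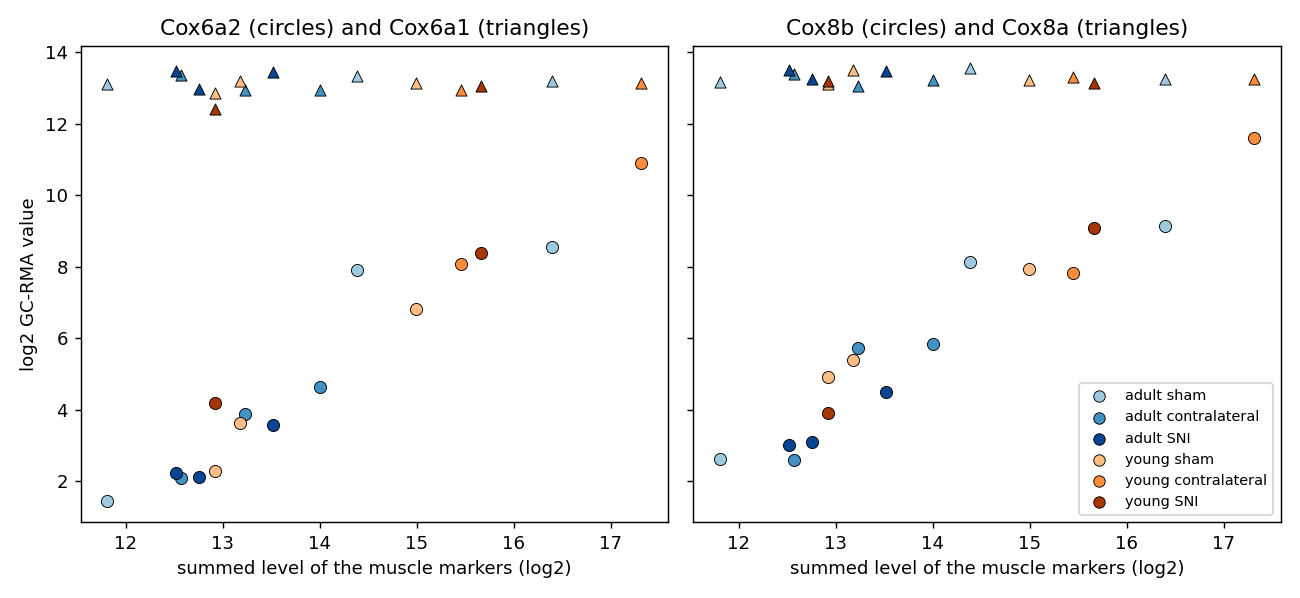
Log2 GC-RMA value of Cox6a2 and Cox6a1 (left) and of Cox8b and Cox8a (right) against the summed level of the muscle markers, 1 circle and 1 triangle for each of 16 arrays, coloured by group. The circles rise with the muscle markers from 1.46 to 10.91 and from 2.6 to 11.61, while the triangles of the common isoforms stay between 12.41 and 13.57.

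The regions before the gene starts are shown for these 2 isoforms, which moved together, and for Ndufa5 and Atp5mc3, which differed in opposite directions between ages in the results that follow. Each is the last 110 bases before the start in RefSeq, build GRCr8, read in the direction of the gene, and a promoter entry was found for 70 of the 77 genes. Cox6a2 lies at chr1:192219717-192219826, Cox8b at chr1:205408274-205408383, Ndufa5 at chr4:53971236-53971345 and Atp5mc3 at chr3:79220665-79220774, all on the minus strand. Capitals mark CAGCTG, the E-box type bound by myogenic factors, CTAAAAATA, the AT-rich part of a MEF2 site, TATAAA, the TATA box, and GCGCANGCG, most of the site of nuclear respiratory factor 1 (NRF1). No capitals overlap, and both strands were searched.
Cox6a2: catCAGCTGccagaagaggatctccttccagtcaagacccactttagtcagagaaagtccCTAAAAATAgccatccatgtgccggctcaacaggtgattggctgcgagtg
Cox8b: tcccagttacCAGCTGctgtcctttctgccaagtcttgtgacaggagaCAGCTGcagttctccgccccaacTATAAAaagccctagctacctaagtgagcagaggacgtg
Ndufa5: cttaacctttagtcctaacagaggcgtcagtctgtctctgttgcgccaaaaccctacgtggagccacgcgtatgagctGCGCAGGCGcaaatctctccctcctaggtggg
Atp5mc3: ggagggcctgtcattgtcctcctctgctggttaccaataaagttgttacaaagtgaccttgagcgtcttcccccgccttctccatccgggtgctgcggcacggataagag

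The muscle isoforms held these letters close to the start. Cox6a2 held a CAGCTG starting 107 bases before its start and a CTAAAAATA starting 50 bases before, and Cox8b held CAGCTG at 100 and 62 bases and TATAAA at 39 bases. CTAAAAATA occurred in 1 of the 70 member promoters (1.43%), that of Cox6a2, in 0.511% of all 33469 promoters of 300 bases (250 before the start and 50 after it) and in 0.387% of those of the 13193 genes on the array. CAGCTG is common, with 15.7% of the member promoters, 15.1% of all promoters and 16.5% of those on the array. TATAAA was found in 11.4% of the member promoters, in 14.2% of all promoters and in 8.47% of those on the array.

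Letters of factors known for mitochondrial genes were more frequent in the member promoters. GCGCANGCG was held by 17 of 70 (24.3%), among them Ndufa5, Sdha, Uqcrc1 and Atp5mc3, against 5.8% of all promoters and 10.7% of those on the array. In Ndufa5 it began 32 bases before the start and in Atp5mc3 after the start, outside the stretch shown. Ndufa3 and Ndufc2, which like Ndufa5 were higher in adults, held none of the searched letters in their last 110 bases and are not shown. CCGGAAG, the core bound by ETS factors such as GABP, was held by 20 (28.6%), Cox4i1, Cox5b, Sdhb and Sdhd among them, against 8.75% of all and 14.2% of those on the array. AAGATGGCG, the site of YY1, was held by 10 (14.3%) against 1.73% and 2.93%, and in 8 of the 10 it lay only after the start. These are matches of letters and were not tested.

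Age was compared over all groups, as the mean of the 3 adult groups minus the mean of the 3 young groups, each group counting alike. The arrays were treated as independent, although contralateral ganglia came from SNI rats. Complex I accessory subunit genes Ndufa5, Ndufa3 and Ndufc2 were higher in adults, and Atp5mc3, a gene for the proton-conducting c ring of complex V, was lower. These 4 of 77 genes passed the limma test at an adjusted p of 0.05, while 10.6% of all Affy_IDs did, 5.55% higher and 5.04% lower in adults. The share among the respiratory chain genes was thus not above that of the array. At an unadjusted p under 0.05 there were 11 of 77, against 24% of all Affy_IDs. The median difference of the 77 genes was 0.07, with 52 above 0 and 25 below. Over all Affy_IDs the median was 0.02, with 37.7% below 0. For Affy_IDs with a mean of at least 11 it was 0.04, with 43.2% below 0. In 74 of the 77 the difference was smaller than 0.5. No member had adult arrays that were all above or all below the young arrays, which 2.75% of all Affy_IDs had. With adult SNI and contralateral arrays of the same number as random pairs, Atp5mc3, Ndufa3 and Ndufa5 passed and Ndufc2 did not.

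Ndufa5 encodes an accessory subunit of the matrix arm of complex I. It was at 12.34, 11.85 and 12.17 in adult sham, 11.97, 12.37 and 11.53 in adult contralateral and 11.36, 11.86 and 11.67 in adult SNI. In young rats it was at 11.04, 11.26 and 11.21 in sham, 11.78 and 11.37 in contralateral and 11.38 and 10.94 in SNI. The adult arrays were mostly above the young ones, and the ages overlapped between 11.36 and 11.78. The difference was 0.6 (SE 0.14, adjusted p = 0.0188). Between the sham groups alone it was 0.95 (SE 0.22, adjusted p = 0.0887).

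Ndufa3 and Ndufc2 encode accessory subunits of the membrane arm of complex I. Ndufa3 was at 12.53, 12.6 and 12.36 in adult sham, 12.32, 12.66 and 12.47 in adult contralateral and 12.39, 12.9 and 12.39 in adult SNI, and in young rats at 12.01, 11.97 and 12.19 in sham, 12.32 and 12.22 in contralateral and 12.23 and 12.06 in SNI. The ages met at 12.32, the lowest adult and the highest young value, and the difference was 0.36 (SE 0.09, adjusted p = 0.0239). Ndufc2 was at 12.06, 12.06 and 12.08 in adult sham, 11.93, 12.17 and 11.82 in adult contralateral and 11.91, 12.31 and 12.1 in adult SNI, and in young rats at 11.89, 11.65 and 11.72 in sham, 11.88 and 11.83 in contralateral and 11.86 and 11.69 in SNI. Its ages overlapped, with adults from 11.82 to 12.31 and young rats from 11.65 to 11.89. The difference of 0.25 was the smallest of those that passed (SE 0.07, adjusted p = 0.0381).

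The c ring of complex V carries protons through the membrane. Among the 77 genes Atp5mc3 was the only Atp5mc symbol, and no other gene for this ring is described. Atp5mc3 was at 13.99, 13.85 and 14.09 in adult sham, 13.86, 14.1 and 13.97 in adult contralateral and 13.85, 13.92 and 13.94 in adult SNI. In young rats it was at 14.54, 14.14 and 14.13 in sham, 14.33 and 14.3 in contralateral and 14.21 and 14.1 in SNI. All young arrays were at or above the highest adult array, and the difference was -0.29 (SE 0.07, adjusted p = 0.0179). Atp5if1, the inhibitor that keeps complex V from running backwards, was next in order of p but did not pass. Its adult arrays ran from 12.54 to 13.3 and its young arrays from 11.97 to 12.85, with a difference of 0.48 (SE 0.14, adjusted p = 0.0572).

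**Figure D2:**
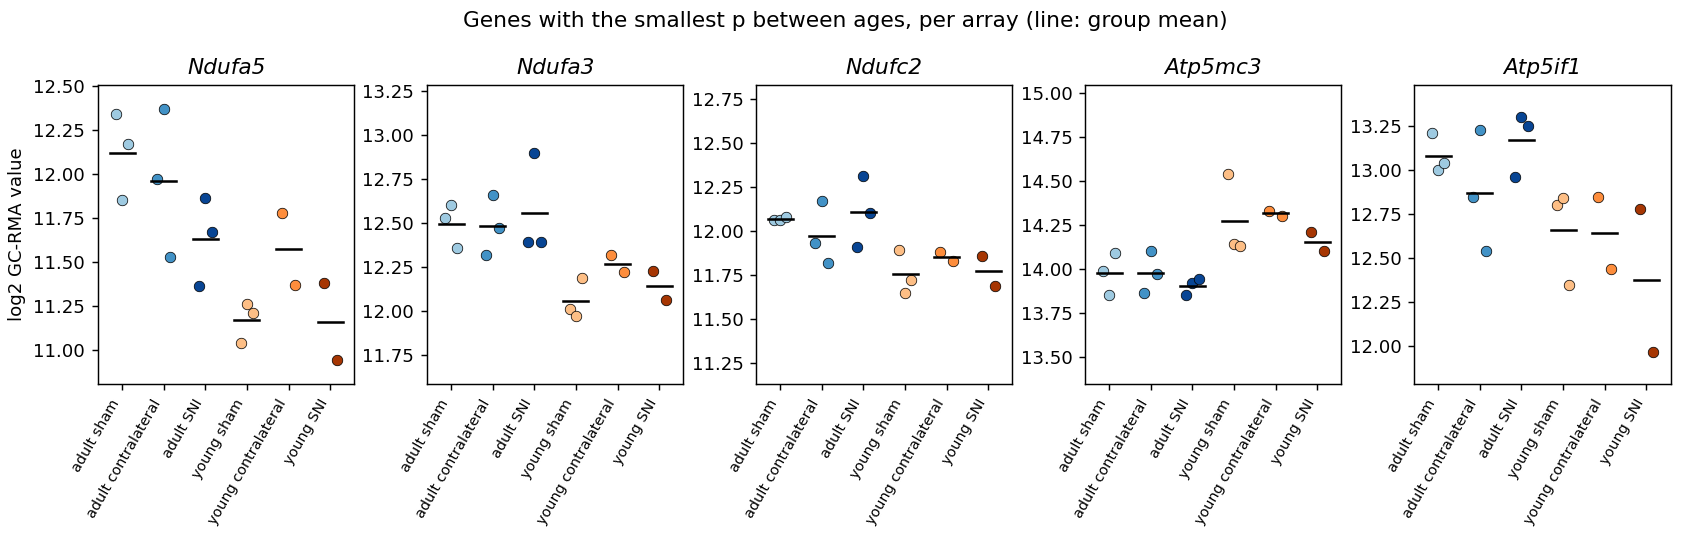
Log2 GC-RMA values (vertical axes, all of the same length) of the 4 genes that passed between ages and of Atp5if1, by group (horizontal axis), with 1 point for each array and a line at each group mean. Ndufa5, Ndufa3, Ndufc2 and Atp5if1 lie higher in the adult groups and Atp5mc3 lies lower, and the ages touch or overlap in each gene.

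These calls depended on single arrays. Ndufc2 was lost in 12 of the 16 fits that left out 1 array. Without young SNI replicate 2 Atp5mc3 alone passed, and without young contralateral replicate 2 again Atp5mc3 alone. Without young contralateral replicate 1 Ndufa5 alone passed. Without young SNI replicate 1, which leaves the young SNI group to the array with central tissue, 11 genes passed. With the replicate number as a block only Ndufa3 passed (adjusted p of Ndufa5 0.0971, of Atp5mc3 0.0746). This block links arrays of the same number within each age, also young arrays and sham arrays from other rats. Whether such a link holds was not tested. Scaling moved the split of higher and lower calls, from 3 and 1 to 6 and 4 with quantile normalization and to 5 and 0 with each array centred on its median, where Atp5mc3 was at -0.2 and did not pass.

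None of 6 genes of the catalytic core of complex I passed, with adjusted p from 0.377 to 0.889. Ndufv1, which binds NADH, was at -0.13 (SE 0.1) and its partner Ndufv2 at 0.13 (SE 0.12). The iron-sulfur subunit gene Ndufs1 was at 0.17 (SE 0.1), and Ndufs3, Ndufs7 and Ndufs8 were at 0.03, 0.07 and 0.14. Core and accessory genes were not compared by a test. Over complex I the median difference was 0.12, with 24 of 33 genes above 0. Ndufa7, another accessory subunit, was read by a pair of Affy_IDs that differed in their call. The brighter one gave 0.34 (adjusted p = 0.18) and the other 0.8 (adjusted p = 0.00778).

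In complex II the 95% interval of the age difference included 0 in each gene. Sdha, the flavoprotein that oxidises succinate, differed by 0.03 (95% interval -0.18 to 0.24), and Sdhb, the iron-sulfur subunit, by 0.12 (-0.11 to 0.34). Sdhc and Sdhd, the membrane anchors, differed by -0.08 (-0.29 to 0.14) and -0.02 (-0.24 to 0.21). In complex III the core subunit gene Uqcrc2 had the lowest difference, -0.2 (SE 0.08, adjusted p = 0.147), and Uqcr11 the highest, 0.26. Complexes III, IV and V had medians of 0.04 each.

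For the common isoforms of complex IV the intervals of the age difference included 0. Cox4i1 differed by -0.06 (95% interval -0.27 to 0.15), Cox6b1 by 0.04 (-0.13 to 0.22) and Cox8a by 0.08 (-0.1 to 0.25). Cox6a1 was at 0.25 (-0.01 to 0.52). Their muscle counterparts had the largest differences of all members and did not pass, with -2.63 for Cox6a2 (SE 1.17, adjusted p = 0.194) and -2.47 for Cox8b (SE 1.16, adjusted p = 0.227). Cox7a1 differed by 0.32 (SE 0.18, adjusted p = 0.313), Cox4i2 by -0.33 (SE 0.12, adjusted p = 0.114) and Cox6b2 by 0.08 (SE 0.05, adjusted p = 0.353).

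**Figure D3:**
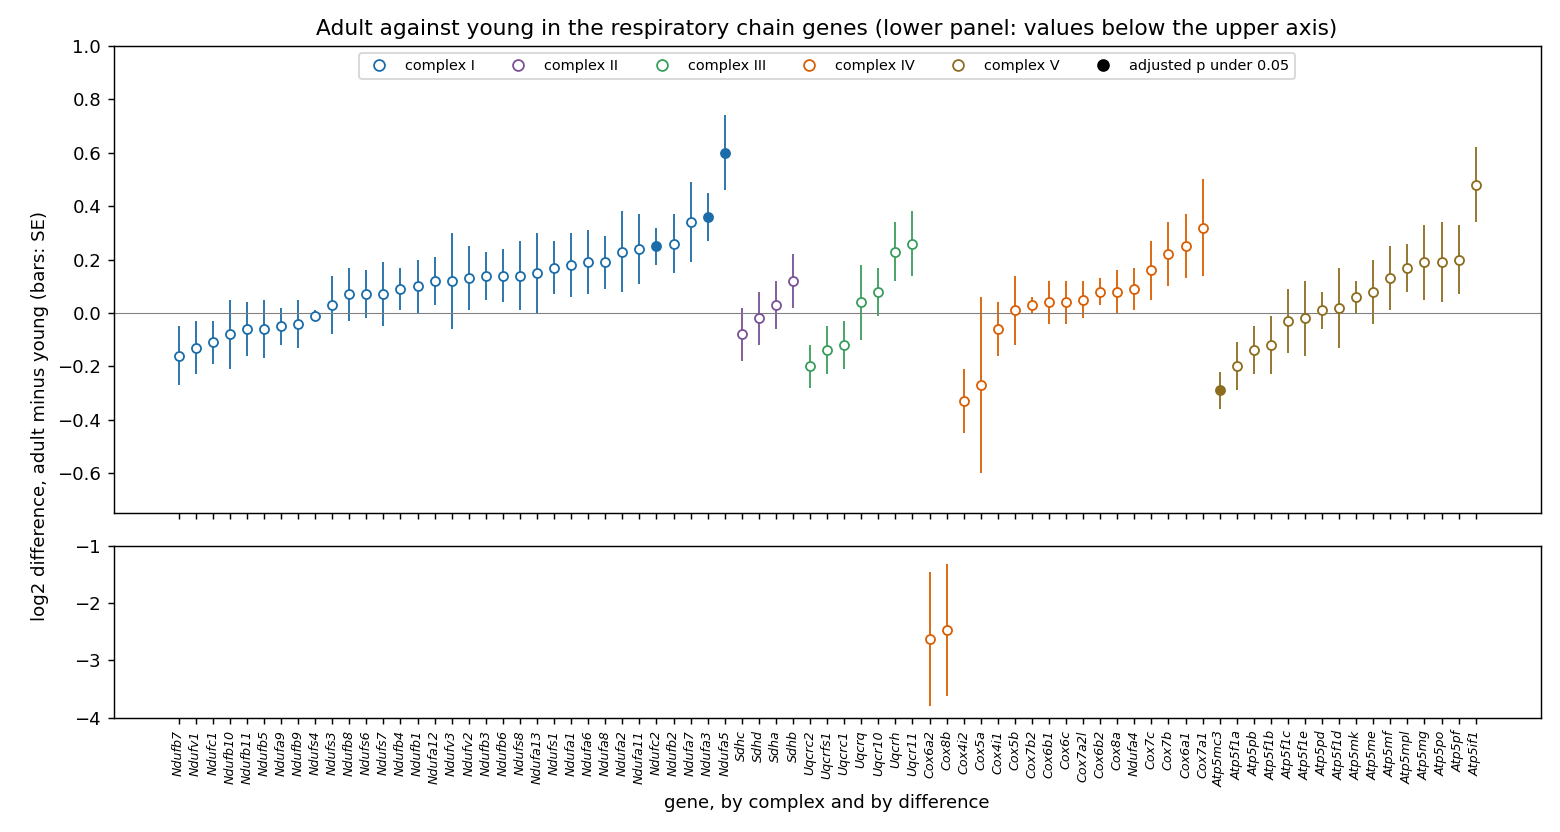
Log2 difference between ages, adult minus young over all groups, of the 77 genes ordered by complex and by difference, with bars of 1 SE and filled symbols for an adjusted p under 0.05. The lower panel holds Cox6a2 and Cox8b at -2.63 and -2.47, and the other genes lie between -0.33 and 0.6.

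Between the sham groups, where no nerve was cut, 0 of 77 genes passed the limma test (0.622% of all Affy_IDs did), with 7 at an unadjusted p under 0.05 (12.3% of all Affy_IDs). Of the 77 genes 60 were higher in adult sham, and the median difference was 0.15. Over all Affy_IDs the median was 0.02, with 37.1% below 0. For Affy_IDs with a mean of at least 11 it was -0.04, with 56.1% below 0. Complex I had 29 of 33 genes above 0. Ndufa5, Ndufa3 and Ndufc2 had the smallest p, and the last 2 differed by 0.44 (SE 0.14, adjusted p = 0.206) and 0.31 (SE 0.11, adjusted p = 0.263). The arrays of this comparison are also in the comparison over all groups.

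Genes that serve the same complexes without being part of them were counted beside them, in the comparison over all groups. Of 36 measured assembly factors 7 were higher in adults and 0 were lower, beside the 5.55% and 5.04% of all Affy_IDs. They were Atpaf1, which assembles the head of complex V, with 0.44 (SE 0.07, adjusted p = 0.00315), Tmem126b of complex I with 0.4 (SE 0.07, adjusted p = 0.00766), Sco1, a copper chaperone of complex IV, with 0.42 (SE 0.08, adjusted p = 0.00946), Coa3, Cox19 and Surf1 of complex IV and Uqcc1 of complex III. Over the alternatives that kept every Affy_ID the count higher in adults ran from 5 to 14, with 6 higher and 1 lower (Cox15) without young SNI replicate 2, 9 higher and 1 lower with quantile normalization and 5 higher with the replicate block.

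Few genes of the other mitochondrial lists passed, beside the 10.6% of all Affy_IDs that did. Idh2, the mitochondrial NADP-dependent isocitrate dehydrogenase, was lower in adults, with a difference of -0.71 (SE 0.17, adjusted p = 0.0245), and was the only one of 14 Krebs cycle genes to pass. Tfb2m, a factor of mitochondrial transcription, was higher by 0.67 (SE 0.13, adjusted p = 0.0104) and Yy1 differed by -0.3 (SE 0.08, adjusted p = 0.0389) among 15 regulators of mitochondrial biogenesis. Gpx1, an antioxidant peroxidase, was higher by 0.56 (SE 0.12, adjusted p = 0.0165), the only one of 10 uncoupling and antioxidant genes. None of 15 glycolytic genes, 11 carrier genes or 11 genes of mitochondrial dynamics passed.

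Some cell type markers also passed between ages, as did 10.6% of all Affy_IDs (5.55% higher and 5.04% lower in adults). Of 14 genes of dividing cells 5 were lower in adults, among them Top2a with a difference of -1.57 (SE 0.23, adjusted p = 0.00259). The Schwann cell genes Mag and Egr2 were lower and Drp2 was higher (3 of 8), the satellite glia genes Glul and Sox10 were lower (2 of 8), and 0 of 19 sensory neuron genes passed. Of 16 macrophage genes 2 were higher and 1 was lower, and of 12 genes of central nervous tissue 1 was lower. The part of such cells in the differences of the respiratory chain genes was not tested.

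After SNI no respiratory chain gene passed in adults. Against sham 0 of 77 passed the limma test (0.48% of all Affy_IDs did), with 2 at an unadjusted p under 0.05 (7.33% of all). Against the contralateral side 0 of 77 passed (1.03% of all Affy_IDs), with 1 at an unadjusted p under 0.05 (9.83% of all). The median difference was -0.06 against sham, with 51 genes below 0, and 0.08 against the contralateral side, with 53 above 0. Below 0 in these comparisons were 64.3% and 64.8% of all Affy_IDs, and 33.5% and 31.3% of those with a mean of at least 11. Without adult SNI replicate 1 the median against sham was 0.05. Without adult contralateral replicate 1 the median against the contralateral side was -0.01, and with quantile normalization it was -0.07. The 95% interval of a single gene, before adjustment, reached 0.37 to either side in the median. Larger differences also did not pass, such as Ndufa5 at -0.49 against sham (adjusted p = 0.675). Changes of this size or smaller could thus be missed with these arrays. In the same ganglia 8 of 16 macrophage genes were higher in adult SNI than on the contralateral side, among them the lysozyme gene Lyz2 by 1.89 (SE 0.29, adjusted p = 0.0123), beside 0.921% of all Affy_IDs higher. Against adult sham 0 of the 16 passed, with a median difference of 1.29.

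The smallest p against adult sham were those of Ndufa5, with a difference of -0.49 (SE 0.22, adjusted p = 0.675), Ndufs1, with -0.36 (SE 0.16, adjusted p = 0.676), and Cox4i1, with 0.28 (SE 0.16, adjusted p = 0.818). Ndufs1 was at 12.5, 12.24 and 12.33 in adult sham and at 11.91, 12.14 and 11.94 in adult SNI. Against the contralateral side they were those of Sdhc, a membrane anchor of complex II, with 0.35 (SE 0.16, adjusted p = 0.503), Cox6b2, with 0.13 (SE 0.07, adjusted p = 0.664), and Uqcr11, with 0.29 (SE 0.2, adjusted p = 0.732). Sdhc was at 9.9, 10.37 and 10.37 in adult SNI and at 9.64, 10.12 and 9.84 on the contralateral side, and each SNI array was above the contralateral array of the same number. With these arrays treated as random pairs, Sdhc alone of the 77 passed (SE 0.09, adjusted p = 0.0404). In that fit 8.69% of all Affy_IDs passed. The pairing by number was inferred from the arrays and was not tested.

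Young SNI had lower values in most respiratory chain genes, and this rested on 1 of its 2 arrays. Against sham 0 of 77 passed the limma test (0.0161% of all Affy_IDs did), with 1 at an unadjusted p under 0.05 (5.91% of all), and the median difference was -0.09 with 61 genes below 0. Against the contralateral side 0 of 77 passed (0.00966% of all Affy_IDs) and 0 had an unadjusted p under 0.05 (5.94% of all), and the median was -0.26 with 72 genes below 0. All 33 genes of complex I, all 7 of complex III and all 16 of complex V were below 0 in this comparison. Without young SNI replicate 2 the medians were 0.13 and -0.01. With that array alone they were -0.35 and -0.5, and 5 and 7 genes passed, a lone array being assumed to vary like the other groups.

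The same shift was present in other bright Affy_IDs. In young SNI replicate 2 the median deviation of the 77 genes from their own means was -0.4, 71 genes were below their mean, and for 47 of 77 it was the lowest of the 16 arrays. The complexes moved together in it, with medians from -0.43 in complex V to -0.31 in complex III. For the 1964 Affy_IDs with a mean of at least 11, a bound chosen after the values were seen, the median deviation in this array was -0.37, and over all Affy_IDs it was 0. The median difference of these 1964 was -0.19 against young sham and -0.21 against the contralateral side. In each comparison 85.2% of them were below 0, against 46.2% and 45.2% of all Affy_IDs. The other 15 arrays had member medians between -0.18, in young sham replicate 3, and 0.21, in adult contralateral replicate 2.

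**Figure D4:**
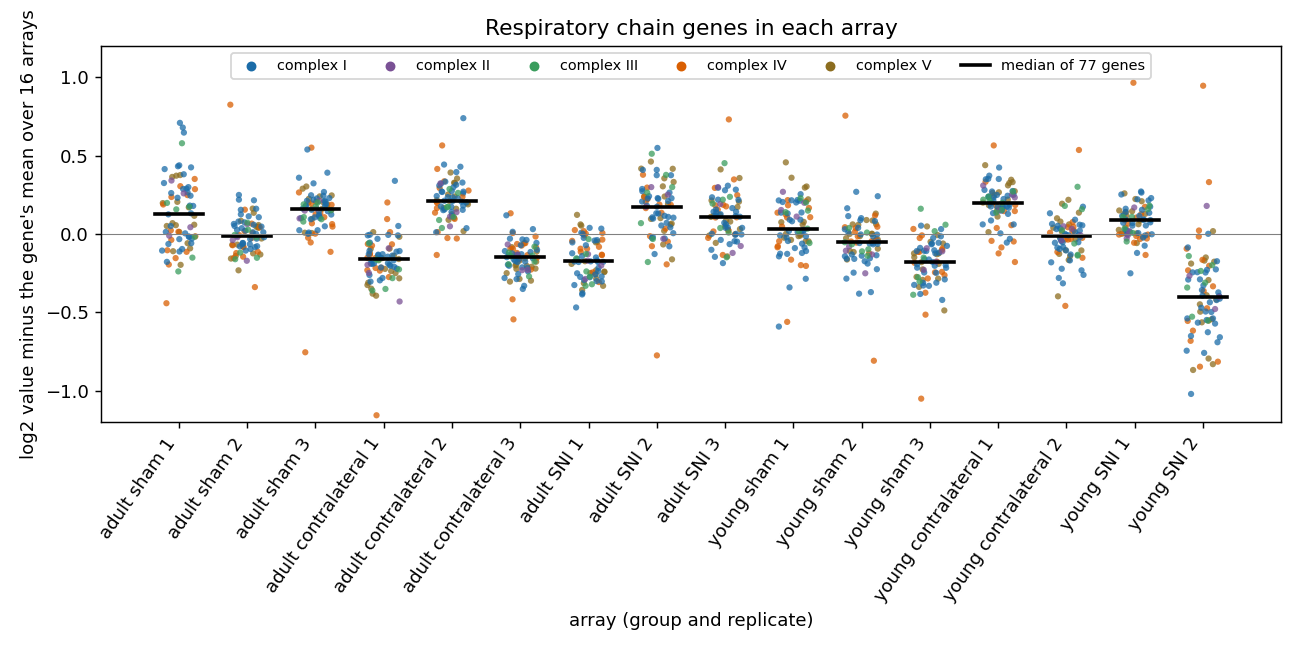
Deviation of each of the 77 genes from its own mean over 16 arrays (vertical axis, log2), by array (horizontal axis), coloured by complex, with a bar at the median; points of Cox6a2 and Cox8b beyond 1.2 are outside the axis. The median is -0.4 in young SNI replicate 2 and between -0.18 and 0.21 in the other arrays.

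Among single genes the smallest p against young sham were those of Cox4i2, with 0.61 (SE 0.22, adjusted p = 0.837), Cox7a1, with 0.49 (SE 0.31, adjusted p = 0.906), and Cox7a2l, with -0.18 (SE 0.12, adjusted p = 0.916). Cox4i2 was at 2.16 and 3.04 in young SNI and at 1.93, 2.05 and 2 in young sham, and without replicate 2 its difference was 0.17, that of Cox7a1 0.31 and that of Cox7a2l -0.02. Against the contralateral side the accessory subunit genes Ndufa9 and Ndufb6 of complex I had differences of -0.32 (SE 0.14, adjusted p = 0.798) and -0.39 (SE 0.19, adjusted p = 0.798), and Atp5mpl, a small protein of complex V, had -0.37 (SE 0.17, adjusted p = 0.798). Without replicate 2 these differences were -0.12, -0.02 and -0.08.

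The response to SNI was compared between ages as the adult difference from both controls minus the young one. The limma test of this difference passed in 0 of 77 genes (0.0966% of all Affy_IDs), and 0 had an unadjusted p under 0.05 (8% of all). The difference was above 0 in 67 genes, and below 0 in 12.3% of the Affy_IDs with a mean of at least 11 and 56.8% of all. The median of the 77 genes was 0.16, beside 0.32 in these bright Affy_IDs and -0.03 over all Affy_IDs. It was -0.05 without young SNI replicate 2. The smallest p were those of Cox4i2, with -0.49 (SE 0.26, adjusted p = 0.652), Cox6b1, with 0.31 (SE 0.17, adjusted p = 0.657), and Cox4i1, with 0.37 (SE 0.21, adjusted p = 0.677). Without young SNI replicate 2 these were -0.05, 0.13 and 0.21.

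**Figure D5:**
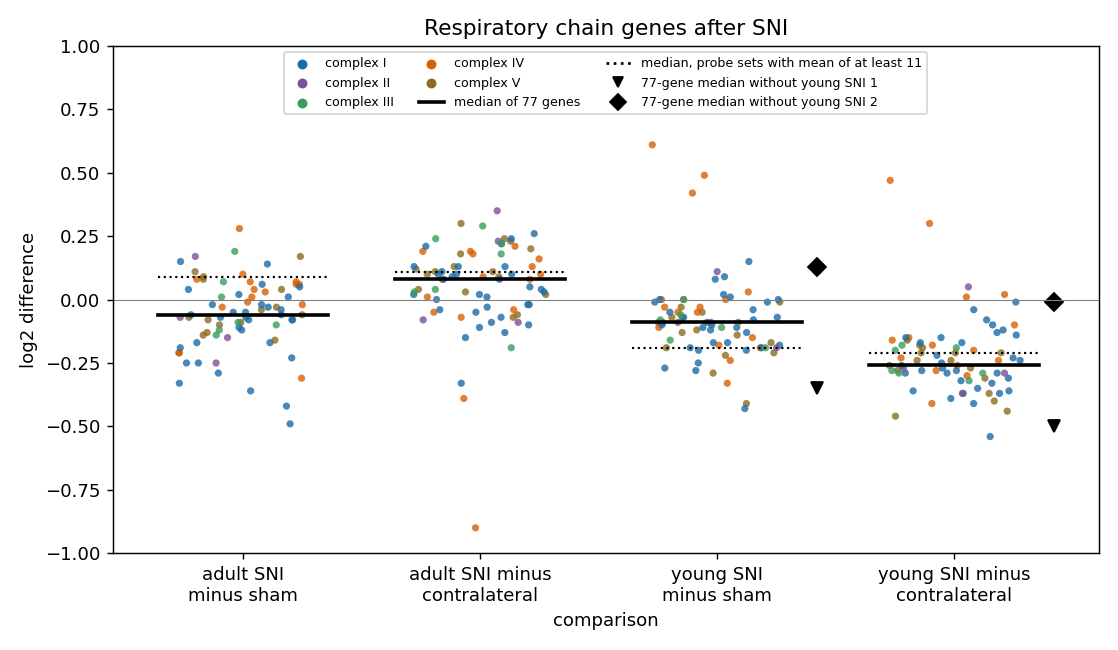
Log2 difference after SNI of the 77 genes (vertical axis) against each control at each age (horizontal axis), coloured by complex; 6 points of Cox6a2 and Cox8b beyond 1 are outside the axis, a solid bar marks the median of the 77 genes and a dotted bar that of Affy_IDs with a mean of at least 11. Without young SNI replicate 2 (diamonds) the young medians move to 0.13 and -0.01, and without replicate 1 (triangles) to -0.35 and -0.5.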

How the data were processed

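RNA from L4/L5 DRG pools was hybridised to Affymetrix rat genome arrays. The authors normalised the scanned arrays by GC-RMA and removed 2 of them, and the log2 values were used as deposited; for their tools no version was given in the sources used here. Precision is set by the number of arrays. The 57 control Affy_IDs were left out and 31042 tested. A single gene symbol was listed for 20826, several for 436 and none for 9780.

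One limma model (limma 3.58.1, R 4.3.3) with 6 group means was fitted to the 16 arrays, with p adjusted by Benjamini-Hochberg over all Affy_IDs of a comparison at a threshold of 0.05. Adjusted p are from it unless another fit or a permutation is named. The fit was tested on simulated data. These had independent arrays, no shift of a whole array, and age differences larger than those of the respiratory chain genes that passed. Paired arrays and smaller differences were not simulated. The members, gene lists, comparisons and alternatives were chosen with earlier results of these data known. Genes were named where they passed (up to 10 in each direction between ages, 5 elsewhere), where none passed as the 3 with the smallest p, as the extremes of each complex, and as isoform families and complex II; Cox5a, Ndufs1, Ndufv1 and others named for a single value were chosen after their values were seen. Summed levels are log2 of the sum of linear signals of a list. Python 3.11.15 made promoter searches and figures.

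Deviations from group means of adult SNI and contralateral arrays with the same number correlated at 0.449, 0.445 and 0.362 over all Affy_IDs. For adult contralateral and sham arrays, which come from different rats, the correlations were 0.057, 0.171 and 0.118. Over the respiratory chain genes alone the order was reversed, at -0.083, 0.7 and 0.706 against 0.681, 0.922 and 0.902. From the values over all Affy_IDs the numbers were taken to pair adult SNI and contralateral arrays. This pairing is an inference and was not tested. Numbers of young arrays are taken as names only, except in the replicate block. That block links arrays of the same number within each age, sham arrays included, and the link was not tested. Alternatives were a filter (above 4 in at least 2 arrays, 18540 kept), an intensity trend, a robust prior, array weights, quantile normalization, median centring, the replicate block, each age on its own, the mean of all Affy_IDs of a gene, leaving out _x_at and _s_at Affy_IDs, and leaving out each array. Random adult pairs were added after seeing the data.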

Additional observations from a re-analysis of the deposited data

How the results depend on the processing

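Among the genes recomputed under each alternative (those that passed or had the smallest p in a comparison, with Atp5if1, Cox6a2 and Cox8b) none changed direction. The count of genes passing between ages was 4 and became 2 with array weights, 10 with quantile normalization and 1 with the replicate block, and it ranged from 1 to 11 when arrays were left out 1 at a time. Quantile normalization gave 2 genes between the sham groups and moved the median to -0.06 in young SNI against contralateral and to -0.12 in the response between ages. Random adult pairs (correlation 0.61) gave 1 gene, Sdhc, in adult SNI against contralateral. With 1 array left out, young SNI against sham had 0 to 5 genes and a median of -0.35 to 0.13, young SNI against contralateral 0 to 7 genes and -0.5 to -0.01, and the response between ages 0 to 3 genes and -0.05 to 0.4; each highest count and each of these medians came from leaving out a young SNI array. The replicate block changed no other count of respiratory chain genes. The cause of these changes was not tested. GC-RMA gives no spot background, so genes near 2 have no measured order, and with 2 or 3 pools a group small differences could not be seen.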

Other observations

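Ndufs4, an accessory subunit of complex I with a mean of 9.76, varied by 0.12 over the 16 arrays, between 9.7 and 9.82, and its SD within groups was 0.03 against a median of 0.21 for the 77 genes. In young SNI replicate 2, where 71 genes were below their own mean, it was at 9.76. Its SD was below even the 0.05 of Cox7b2, near the floor, and whether this Affy_ID follows its mRNA was not tested. Cox5a of complex IV varied most among the members outside the muscle isoforms, with 8.7, 9.72 and 8.14 in adult sham, 9.02, 9.65 and 8.38 in young sham and 9.86 and 8.08 in young SNI, and an SD within groups of 0.69. Both genes were chosen after their values were seen.

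Phospholamban (Pln), a regulator of the calcium pump of heart and slow muscle, was higher in adults by 2.4 (SE 0.2, adjusted p = 0.000126), and was the only one of 16 muscle markers to pass between ages. The median of the muscle markers was -1.83, with 2 of 16 above 0.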
